A study of Mus musculus with 9 samples.

Results

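Apolipoproteins and lipoprotein assembly are followed here through 10 genes of mouse liver, chosen by name: Apob and Mttp, which build triglyceride-rich particles, Apoa5, Apoc3 and Apoe, which act on those particles in plasma, Apoa1, Apoa2 and Apoa4, the apolipoproteins of high density lipoprotein, and Lcat and Lipc, which remodel it. The choice of these 10 genes was made with earlier results of these data known. All 10 were found among the 23444 listed genes and all 10 passed the filter on low values. RNA was sequenced from livers of C57Bl6 mice in 3 groups of 3 libraries. Young mice were 2 months old and untreated, aged mice were 20 to 22 months old and untreated, and treated mice were 20 to 22 months old and had PD-0332991 in their chow for 2 weeks, at an amount that the labels give as 450 with the unit written mg/k. PD-0332991 is palbociclib, an inhibitor of CDK4 and CDK6, kinases of the cell cycle. By its title, the series is about Cdk4 in hepatic steatosis of old age. There was no treated young group. Whether replicate libraries are from different mice is not stated, so every p-value measures the spread between these libraries.

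The liver exports triglyceride in very low density lipoprotein (VLDL). Each VLDL particle carries a single apolipoprotein B, and microsomal triglyceride transfer protein loads lipid onto it in the endoplasmic reticulum. In plasma, lipoprotein lipase removes the triglyceride, with apolipoprotein C-II as its activator and apolipoprotein C-III as an inhibitor, while apolipoprotein A-V promotes the removal and apolipoprotein E carries remnants to liver receptors. Apolipoprotein A-I forms high density lipoprotein (HDL), which returns cholesterol to the liver.

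Of the 10 genes, 4 lie side by side within 43.34 kb of chromosome 9, in the order Apoa1, Apoc3, Apoa4 and Apoa5 (positions 46228580 to 46271919, GRCm38, which is mm10). The sequence just upstream of 3 of them is shown because they share a cluster and a strand, and the results below turn on them. Apoa5 was the one member called changed with treatment, Apoa4 had the widest range of levels, and Apoa1 was the most abundant of the 4. Sequences are RefSeq's (GRCm38.p6), plus strand, 5′ to 3′. They cover chr9:46268358-46268607 (Apoa5), chr9:46240594-46240695 (Apoa4) and chr9:46228380-46228579 (Apoa1). The stretch for Apoa5 ends at the base before its upstream RefSeq start. Those for Apoa4 and Apoa1 end at the base before their GENCODE starts, upstream of their RefSeq starts at 46240844 and 46228630. Capitals mark the letters TATAAA in Apoa5 and CAAAGTTC in Apoa4.
Apoa5: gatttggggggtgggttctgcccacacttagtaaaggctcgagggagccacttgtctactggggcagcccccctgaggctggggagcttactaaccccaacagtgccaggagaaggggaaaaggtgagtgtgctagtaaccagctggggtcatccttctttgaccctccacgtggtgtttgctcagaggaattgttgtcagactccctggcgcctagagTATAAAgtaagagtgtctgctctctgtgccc
Apoa4: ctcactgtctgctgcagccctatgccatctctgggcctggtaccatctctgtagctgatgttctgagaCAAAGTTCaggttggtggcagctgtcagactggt
Apoa1: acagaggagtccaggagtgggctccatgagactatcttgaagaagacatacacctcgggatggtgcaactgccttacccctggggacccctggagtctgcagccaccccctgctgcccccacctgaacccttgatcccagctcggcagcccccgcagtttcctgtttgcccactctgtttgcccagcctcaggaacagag

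The search covered 300 bases around each RefSeq gene start, from 250 before to 50 after, on both strands. It used 14 entries, which covered 9 of the 10 genes. A gene with several entries was counted if any of them matched, whereas the percentages below are of single windows. Letters of the type bound by HNF4A, a nuclear receptor of hepatocytes (CAAAGNTC, or GANCTTTG on the other strand), were found at 4 genes: 182 bases before the RefSeq start of Apoa4, 94 before that of Apob, and in 1 entry each of Apoe and Lipc. They occur in 4.43% of all 32851 such windows. TATAAA was found at Apoa2, Apoa5, Apob and Apoe, against 13.6% of all windows, and lay 31 bases before the upstream start of Apoa5. The letters TTTNGCGC, a form of the E2F element of cell cycle genes, were in none of the 14 entries and in 1.38% of all windows. TTGCNNAA, a form of the C/EBP element, was found at Apoa2 and Apob and in 10.8% of all windows. The stretch shown for Apoa1 held none of these letters. A match is a description of the letters and not evidence of binding.

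The 10 genes differed by more than 2 orders of magnitude in level. On the TPM scale, which divides by transcript length, the mean over the 9 libraries ran from 18826 for Apoa2 and 15144 for Apoe through 11561 for Apoa1 and 6273 for Apoc3 to 605 for Apoa5. Apob and Lcat followed at 261 and 260, then Apoa4 at 90.0, Lipc at 89.1 and Mttp at 58.9. Neighbours in this order did not overlap in any library as far down as Apoa5 and Apob, or between Lcat and Apoa4. The pairs Apob and Lcat, Apoa4 and Lipc, and Lipc and Mttp did overlap. Apoa2, Apoe and Apoa1 ranked 2nd, 3rd and 5th among all listed genes, whereas Apob, the structural protein of VLDL, ranked 343rd and Mttp 1117th.

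Together the 10 genes held 9.70% ± 0.39 of the listed TPM in young, 9.47% ± 0.45 in aged and 9.55% ± 0.36 in treated libraries (SD, n = 3), so the summed share differed by less than the spread between libraries. Apoa1, Apoa2, Apoc3 and Apoe made up 97.0% to 97.9% of that sum in every library. The range over the libraries was narrowest for Apoe, whose highest value was 1.18 times its lowest, and widest for Apoa4, at 3.45 times. Apoa5 came next at 2.32 times. The plot of levels by library shows the 10 genes on their own scales.

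**Figure D1:**
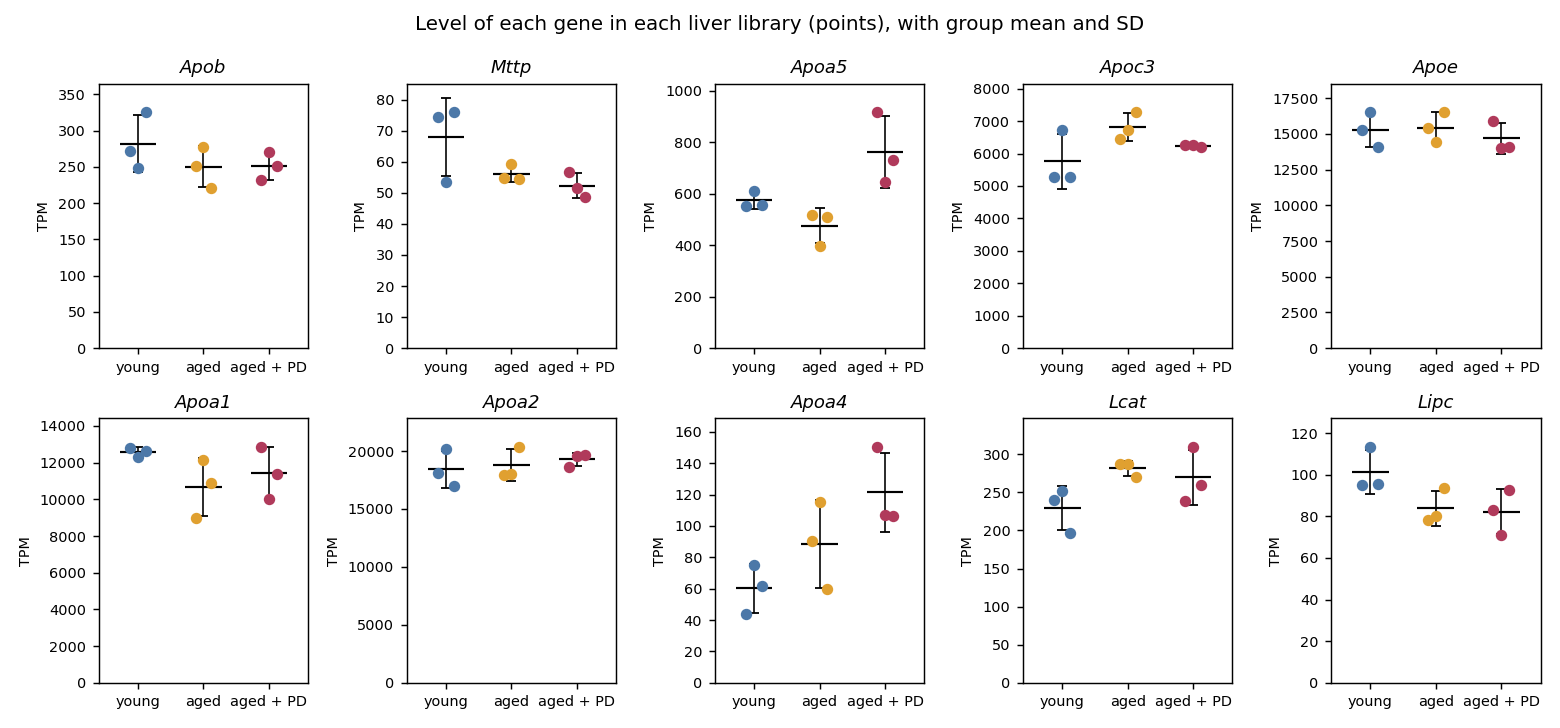
Level of the 10 genes in TPM (y axis, linear from 0) in the 3 young, 3 aged and 3 treated (aged + PD) libraries, 1 point per library, with the group mean (wide bar) and SD (whiskers). The 3 treated libraries of Apoa5, between 644 and 918 TPM, lie above all 6 untreated ones, while Apoe stays between 14031 and 16540 TPM throughout.

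With age, none of the 10 genes passed the test (limma on log2(TPM + 0.5), Benjamini-Hochberg adjusted p under 0.05 over 10161 genes), where 1.1% of all tested genes did. At an unadjusted p under 0.05, 2 of the 10 (Apoc3 and Lcat, both higher in aged livers) stood beside 15% of all genes. Aged and young libraries did not overlap for 4 genes, with Lcat higher and Apoa1, Apoa5 and Lipc lower in aged livers, where 18.4% of all genes did not overlap. The median log2 difference of the 10 was -0.08, against -0.01 over all tested genes, and 5 of the 10 were above 0.

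With treatment of aged mice, Apoa5 was called higher and the other 9 genes did not pass, where 1.45% of all tested genes passed. Groups did not overlap for Apoa5 (higher) and Apoc3 (lower), beside 22.4% of all genes, and Apoa5 alone had an unadjusted p under 0.05, beside 18.2%. The median log2 difference of the 10 was -0.01, against -0.09 over all genes, and 5 of the 10 were above 0. This comparison shares the aged libraries with the age comparison, so a low or high aged group moves both.

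Treated aged livers set against young livers differ in both age and treatment. None of the 10 genes passed, where 6.88% of all genes did. At an unadjusted p under 0.05 there were 4 (Apoa4 and Apoa5 higher, Mttp and Lipc lower), beside 24.8% of all genes. Groups did not overlap for Apoa4 and Apoa5 (higher) and Lipc (lower), beside 33.9% of all genes. The median log2 difference of the 10 was 0.01, against -0.10 over all genes, again with 5 above 0.

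Apoa5 encodes apolipoprotein A-V, a low-abundance plasma protein that promotes triglyceride removal (chromosome 9, 46268633 to 46271919, plus strand). Its level was 552, 613 and 557 TPM in young, 519, 397 and 511 in aged, and 918, 644 and 730 in treated libraries. All 3 treated libraries lay above all 6 untreated ones, and all 3 aged libraries below all 3 young ones. Treated livers were 0.68 ± 0.14 higher than aged livers on the log2(TPM + 0.5) scale (SE, n = 3 per group, 95% interval 0.37 to 0.99), a fold change of 1.6 with a limma adjusted p of 0.0415. Aged livers had a log2 difference of -0.28 from young ones (-0.59 to 0.03, adjusted p = 0.386), and treated livers one of 0.40 from young ones (0.09 to 0.71, adjusted p = 0.112). The call with treatment lay close to the threshold. It was lost without any 1 of the 3 young libraries (adjusted p 0.0704 to 0.0724), without aged replicate 2 (log2 difference 0.55, adjusted p = 0.123), and without treated replicate 1 (0.54, 0.106), 2 (0.79, 0.0716) or 3 (0.70, 0.119), and was kept without aged replicate 1 or 3 (0.0406 and 0.0245). It was lost too with no filter on low values (0.0928), without the trend and robust options (0.0728) and in a fit of the 2 groups alone (0.120).

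Apoc3, whose protein inhibits triglyceride removal, lies on the minus strand of the same cluster (46232933 to 46235636). It measured 5279, 6729 and 5266 TPM in young, 6444, 6719 and 7280 in aged, and 6270, 6270 and 6196 in treated libraries. The treated libraries were close to each other and all below the aged ones, and young replicate 2 lay within the aged range. The log2 difference was 0.25 ± 0.11 with age (0.02 to 0.49, limma adjusted p = 0.301) and -0.12 ± 0.11 with treatment (-0.36 to 0.11, adjusted p = 0.577). Neither passed.

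Apoe encodes the apolipoprotein that carries remnants to their receptors (chromosome 7, 19696109 to 19699188, minus strand). It measured 15300, 16527 and 14053 TPM in young, 15395, 14421 and 16540 in aged, and 15924, 14031 and 14105 in treated libraries. The 3 groups overlapped fully. The log2 difference was 0.02 with age (-0.20 to 0.23, limma adjusted p = 0.962) and -0.07 with treatment (-0.29 to 0.14, adjusted p = 0.739).

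Apob encodes the structural protein of VLDL (chromosome 12, 7977648 to 8016835). Its level was 272, 249 and 326 TPM in young, 250, 278 and 221 in aged, and 231, 270 and 251 in treated libraries. The groups overlapped in each comparison. With treatment the log2 difference was 0.01 ± 0.12 (-0.26 to 0.28, limma adjusted p = 0.980), and with age -0.17 ± 0.12 (-0.44 to 0.10, adjusted p = 0.549). With library weights the treatment difference was -0.043.

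Mttp encodes the large subunit of the transfer protein that lipidates apolipoprotein B (chromosome 3, 138089854 to 138144968). It measured 74.6, 53.5 and 76.1 TPM in young, 54.7, 59.4 and 54.5 in aged, and 56.6, 51.5 and 48.8 in treated libraries. Of the young libraries, replicates 1 and 3 lay above all other libraries and replicate 2 lay with the aged and treated ones. The log2 difference was -0.26 (-0.55 to 0.03, limma adjusted p = 0.400) with age, -0.10 (-0.39 to 0.19, adjusted p = 0.726) with treatment, and -0.36 ± 0.13 (-0.65 to -0.07, adjusted p = 0.120) between treated and young livers. Without young replicate 2 the last of these became -0.52 and passed (adjusted p = 0.0303). Trmt10a overlaps Mttp on the opposite strand and was listed at 0.697 to 1.64 TPM, and the counting is not stated to use strand. The TPM ratio of Apob to Mttp averaged 4.19 ± 0.51 in young, 4.44 ± 0.33 in aged and 4.82 ± 0.64 in treated libraries (SD, n = 3), with overlap between all groups.

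Apoa1 encodes the main protein of HDL (chromosome 9, 46228580 to 46230466). Its level was 12808, 12288 and 12625 TPM in young, 8989, 12150 and 10900 in aged, and 12869, 10042 and 11376 in treated libraries. The 3 young libraries were tight and all above the aged ones, which spread more. The log2 difference was -0.25 ± 0.12 with age (-0.52 to 0.02, limma adjusted p = 0.380) and 0.10 ± 0.12 with treatment (-0.17 to 0.37, adjusted p = 0.707). Quantile normalization, which sets values by their rank within a library, moved the age difference to 0.012. Median-of-ratios scaling gave -0.23 and rescaling the listed TPM gave -0.27. The TPM ratio of Apoc3 to Apoa1 was 0.459 ± 0.077 in young, 0.646 ± 0.084 in aged and 0.552 ± 0.069 in treated libraries (SD, n = 3). The highest young ratio, 0.548, lay just under the lowest aged ratio, 0.553, and the treated range overlapped both.

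Apoa2, the second protein of HDL (chromosome 1, 171225054 to 171226379), was the most abundant of the 10 genes. It measured 18112, 20139 and 17024 TPM in young, 17907, 18054 and 20369 in aged, and 18620, 19577 and 19633 in treated libraries. The groups overlapped, with a log2 difference of 0.03 (-0.18 to 0.23, limma adjusted p = 0.924) with age and 0.04 (-0.17 to 0.25, adjusted p = 0.861) with treatment.

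Apoa4 encodes an apolipoprotein of HDL and chylomicrons that the intestine makes in large amounts (chromosome 9, 46240696 to 46243459). In these livers it measured 43.6, 75.1 and 61.7 TPM in young, 90.4, 115 and 59.5 in aged, and 150, 107 and 106 in treated libraries. The treated libraries all lay above the young ones, and the aged libraries spread over both ranges. The group means were 60.1 ± 15.8, 88.4 ± 28 and 121 ± 25.2 TPM (SD, n = 3). The log2 difference was 0.54 ± 0.27 with age (limma adjusted p = 0.401), 0.49 ± 0.27 with treatment (adjusted p = 0.373) and 1.02 ± 0.27 between treated and young livers (0.41 to 1.63), a fold change of 2.03 whose adjusted p of 0.0553 just missed the threshold. That difference passed with median-of-ratios scaling (adjusted p = 0.0441), with library weights (0.0151), in a fit of the 2 groups alone (0.0208), and without aged replicate 2 (0.0402) or 3 (0.0171), libraries that enter it through the shared estimate of spread. Of 6 enterocyte markers, Lct, Sis, Alpi and Cdx2 were listed at 0 in all 9 libraries, Vil1 reached at most 0.094 TPM, and Fabp2 was listed at 21.6 to 96.7 TPM. Alb is listed at 0 in these tables too, so a 0 is read only as listed at 0, and the part of other cells in the Apoa4 values was not tested. Antisense genes with predicted-gene (Gm) names, none of them listed, overlap Apoa4, Apoa5, Lcat and Mttp. Unlisted Gm genes on the opposite strand overlap Lipc as well. Reads of the opposite strand cannot be told apart where strand was not used.

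Lcat encodes the enzyme that esterifies cholesterol on HDL (chromosome 8, 105939551 to 105943382). It measured 240, 252 and 197 TPM in young, 288, 287 and 270 in aged, and 239, 310 and 260 in treated libraries. All aged libraries lay above all young ones, and the treated libraries spread over both. The log2 difference with age was 0.30 ± 0.12 (0.04 to 0.57, limma adjusted p = 0.276), and with treatment -0.07 ± 0.12 (-0.34 to 0.19, adjusted p = 0.799).

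Lipc encodes hepatic lipase, which hydrolyses lipids of HDL and remnants (chromosome 9, 70798128 to 70952226, outside the Apoa1 cluster). It measured 95.2, 113 and 95.3 TPM in young, 78.02, 80.2 and 93.5 in aged, and 83.2, 70.8 and 92.7 in treated libraries. All 3 young libraries lay above the 6 aged and treated ones. The log2 difference was -0.27 ± 0.12 with age (-0.54 to 0.00, limma adjusted p = 0.336), -0.03 ± 0.12 with treatment (-0.30 to 0.24, adjusted p = 0.914) and -0.30 ± 0.12 between treated and young livers (-0.57 to -0.03, adjusted p = 0.156). None of these passed. The plot of group differences shows how wide the intervals were for each gene.

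**Figure D2:**
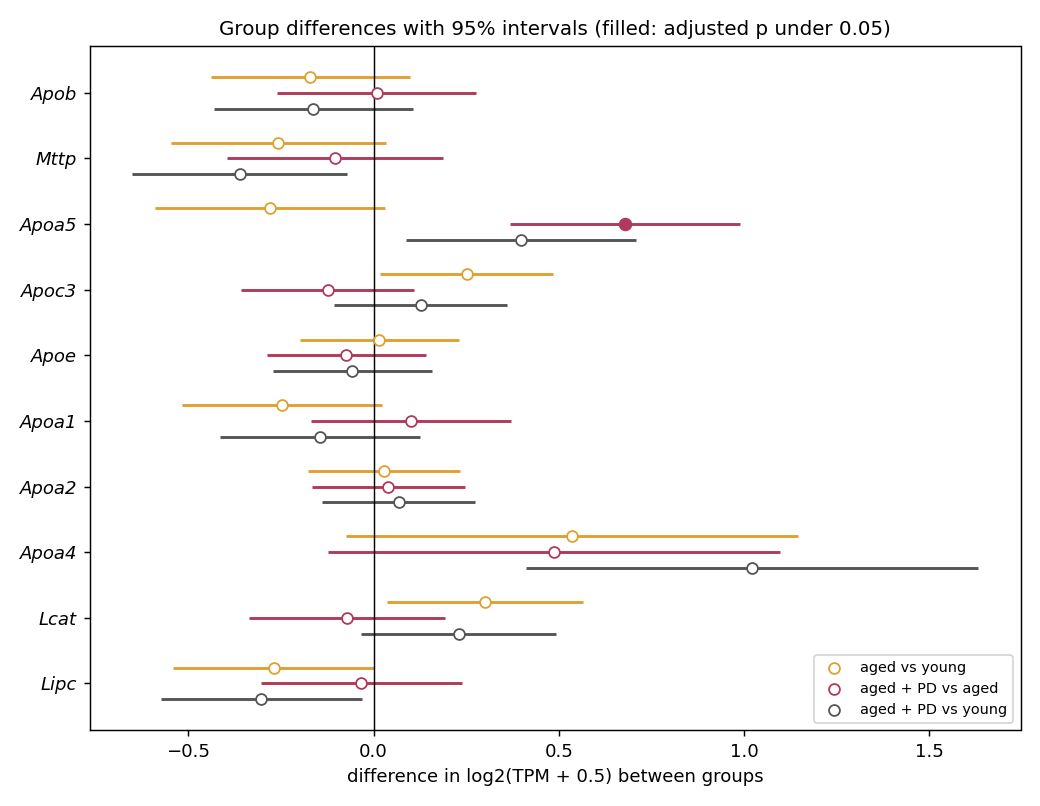
Difference between group means on the log2(TPM + 0.5) scale (x axis) with its 95% interval for each of the 10 genes, for aged against young, treated against aged and treated against young. The filled point is Apoa5 in treated against aged livers (0.68, 0.37 to 0.99), the one difference with an adjusted p under 0.05.

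Median-of-ratios scaling moved the median of all genes from -0.10 to 0.02 between treated and young livers and from -0.09 to 0.0074 with treatment. Under it the treatment differences of Apoe, Mttp, Lipc and Lcat turned to just above 0, at 0.033, 0.0014, 0.073 and 0.035. The sign of the treatment difference printed for each of these 4 genes thus depends on the scaling. Apoa5 under that scaling was higher by 0.78 with treatment, with an adjusted p of 0.0263.

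The next gene beyond Apoa5 was also called higher with treatment. This gene, listed under its older symbol Zfp259 and now called Zpr1, encodes a zinc finger protein and starts 1144 bp after the end of Apoa5 on the same strand (chromosome 9, 46273064 to 46282643). It measured 18.8, 16.2 and 20.1 TPM in young, 14.9, 15.0 and 13.4 in aged, and 21.8, 25.7 and 22.3 in treated libraries. As with Apoa5, the treated libraries lay above all others and the aged ones below all others. The log2 difference with treatment was 0.67 ± 0.11 (limma adjusted p = 0.0198), and with age -0.33 ± 0.11 (adjusted p = 0.196). The call with treatment was lost without aged replicate 2 (0.0519) or treated replicate 2 (0.0898) or 3 (0.0661), with no filter (0.0521) and in a fit of the 2 groups alone (0.0516).

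Bud13, an RNA splicing factor gene looked at after its values were seen, follows Zpr1 by 364 bp. It measured 3.59, 3.04 and 2.69 TPM in young, 2.08, 2.30 and 1.36 in aged, and 2.40, 3.93 and 3.16 in treated libraries, with a log2 difference of 0.60 with treatment that did not pass (limma adjusted p = 0.152). Aged libraries lay below the others here too. On the other side of the cluster Sik3, a kinase gene, had means of 5.73 ± 0.62, 5.28 ± 0.73 and 5.54 ± 0.60 TPM in young, aged and treated livers. Between Apoa5 and the other 3 apolipoprotein genes of the cluster lie 25173 bp.

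A second cluster on chromosome 7 (19671579 to 19699188, 27.61 kb) holds Apoc2, Apoc4, Apoc1 and Apoe. Apoc2, which encodes the activator of lipoprotein lipase, measured 263, 316 and 312 TPM in young, 438, 449 and 377 in aged, and 409, 424 and 386 in treated libraries. All aged and treated libraries lay above all young ones. It rose by 0.50 ± 0.11 with age (limma adjusted p = 0.0482) and was 0.46 ± 0.11 higher in treated than in young livers (adjusted p = 0.0285), with a difference of -0.05 with treatment (adjusted p = 0.844). The age call ended without any library except aged replicate 3 (adjusted p 0.0675 to 0.191). It ended too with median-of-ratios scaling (0.0560), quantile normalization (0.0740), no filter (0.0889), without the trend and robust options (0.0961) and in a fit of the 2 groups alone (0.117), and in all was lost in 15 of 21 alternatives. The call in treated livers ended without young replicate 1 or 3 or any treated library (0.0611 to 0.110) and with quantile normalization (0.0534).

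Apoc1, an inhibitor of remnant uptake, had means of 15376 ± 2383, 15108 ± 1133 and 15591 ± 887 TPM in young, aged and treated livers, near the level of Apoe. Apoc4 had means of 2500 ± 551, 2551 ± 458 and 2440 ± 176 TPM. The flanking genes Clptm1 and Tomm40 stayed between 18.9 and 23.0 TPM in their group means. None of these passed in any comparison. Apoc2 and Apoc4 share a read-through gene model in the annotation, so the reads of the 2 genes may be split in more than 1 way.

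**Figure D3:**
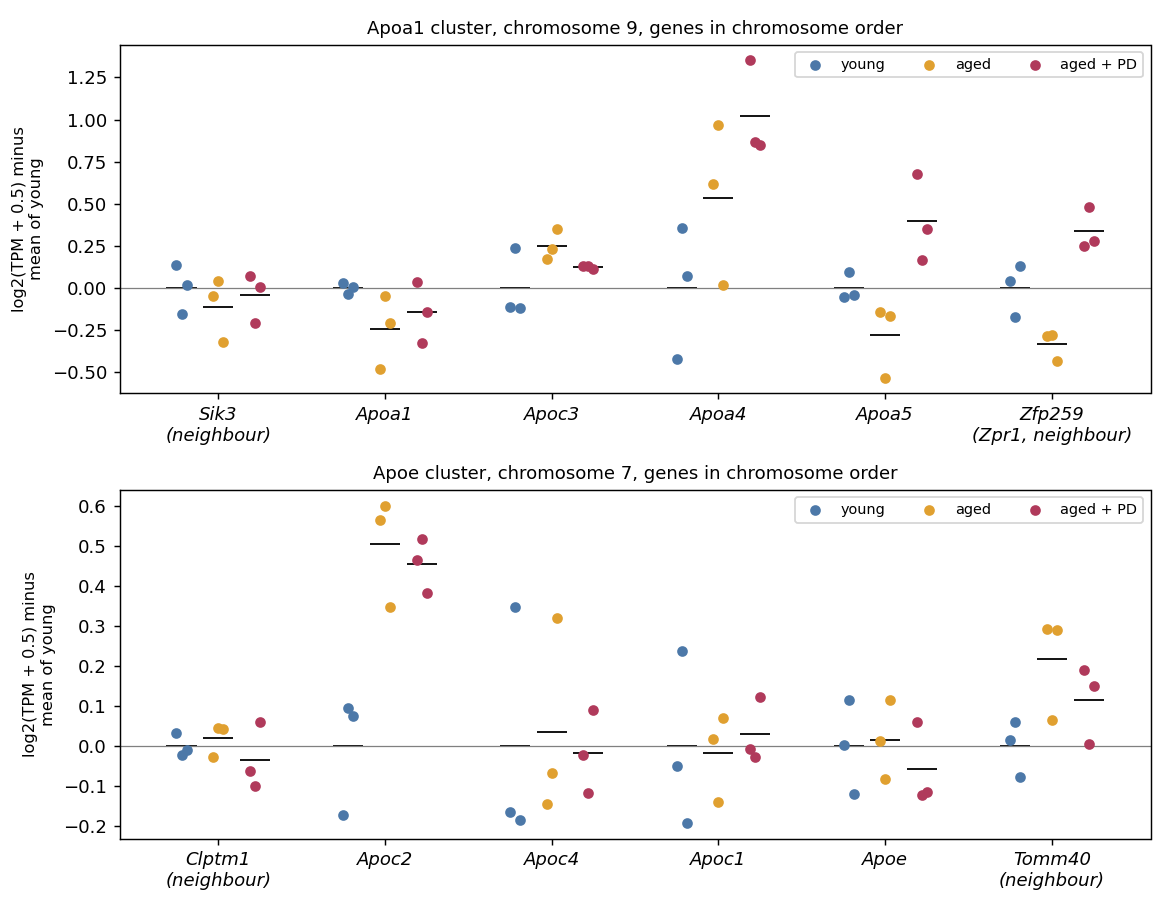
Level of each gene in each library on the log2(TPM + 0.5) scale, relative to the mean of the young libraries (y axis), for the Apoa1 cluster on chromosome 9 (top) and the Apoe cluster on chromosome 7 (bottom), with genes in chromosome order and bars at group means. Apoa5 and Zfp259 both have their aged libraries lowest and their treated libraries highest, while Apoc2 alone of the lower panel has all aged and treated libraries above the young ones.

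Likeness to Apoa5 was measured over the 9 libraries as the root mean square difference of the centred log2 values, among 9627 genes. The nearest gene was Fdps, a cholesterol synthesis enzyme gene, at 0.112, followed by Baiap2l1 at 0.147 and Arl15 at 0.155. Fdps measured 239, 252 and 273 TPM in young, 240, 194 and 278 in aged, and 458, 320 and 359 in treated libraries. Its treated libraries lay above all others with treated replicate 1 highest and aged replicate 2 lowest, as for Apoa5, but its log2 difference with treatment of 0.67 did not pass (limma adjusted p = 0.0556). For Apob the nearest genes were Eif2s1 at 0.0593, Tpp2 at 0.0627 and Setd5 at 0.0639, genes with levels of 3.34 to 11.3 TPM. These distances are descriptions over libraries that share their normalization.

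Other genes of lipoprotein metabolism were counted in 5 lists, with 79 genes of which 73 passed the filter. With age 2 of the 73 passed (2.74%, beside 1.1% of all genes), with treatment 4 (5.48%, beside 1.45%), and between treated and young livers 13 (17.8%, beside 6.88%). Of the 13, 6 were higher and 7 lower. The lists were chosen with earlier results of these data known, so shares above those of all genes are no test of the lists. Apod, Abcg1, Vldlr, Nr2f1, Ppargc1a and Ppargc1b were too low to test.

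Of the other apolipoproteins, 12 were tested. Apoc2 was the 1 called with age, and none was called with treatment. Between treated and young livers Apoc2, Clu and Saa4 were higher. Clu, a chaperone carried on HDL, went from 617 ± 41.6 TPM in young to 849 ± 88.3 in treated livers (log2 difference 0.46, limma adjusted p = 0.0496). Saa4, an HDL protein of the serum amyloid family, went from 83.2 ± 11.9 to 284 ± 29.4 TPM (1.77, adjusted p = 0.0182). Aged livers held 780 ± 127 TPM of Clu and 163 ± 93.9 TPM of Saa4. A separate list of 10 acute phase genes, which holds neither gene, summed to 4613 to 8964 TPM in young libraries. In treated libraries it summed to 14326 to 25983 TPM. Its part in these 2 calls was not tested. The median log2 difference of the list was 0.07 with age, -0.05 with treatment and 0.02 between treated and young livers.

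The 18 genes of VLDL assembly and secretion were all tested. Apobec1, whose enzyme edits the Apob transcript to give the short form of the protein, was the 1 called with treatment. It measured 9.03, 6.69 and 8.40 TPM in young, 6.28, 5.63 and 6.21 in aged, and 10.5, 10.3 and 9.72 in treated libraries, and rose by 0.71 ± 0.13 with treatment (limma adjusted p = 0.0215). Its treated libraries lay above all others. The edited share of Apob was not analysed here.

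Between treated and young livers 3 genes of this list were lower. Sort1, a sorting receptor that binds apolipoprotein B, fell from 4.59 ± 0.66 to 1.22 ± 0.37 TPM (log2 difference -1.58, limma adjusted p = 0.00439), with all libraries of treated livers below the untreated ones. In aged livers Sort1 measured 2.71 ± 0.94 TPM. Its log2 differences of -0.70 with age and -0.88 with treatment were not called (limma adjusted p = 0.184 and 0.0848). Ces1d, a lipase that mobilizes triglyceride for VLDL, fell from 371 ± 58.5 to 160 ± 34.6 TPM (-1.22, adjusted p = 0.0316), with aged livers between at 298 ± 102. Mia2, a protein of cargo export from the endoplasmic reticulum, fell from 17.1 ± 3.5 to 9.94 ± 0.39 TPM (-0.74, adjusted p = 0.0163), with aged livers at 11.3 ± 1.4. P4hb, the small subunit of the transfer protein and an abundant chaperone, did not pass, at 521 ± 34.1, 540 ± 48.4 and 612 ± 46.2 TPM in young, aged and treated livers. Cideb, which enlarges nascent VLDL, did not pass either, at 236 ± 8.2, 225 ± 23.9 and 237 ± 19.4 TPM. The list's median was -0.22 with age, 0.09 with treatment and -0.06 between treated and young livers.

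Of 14 tested genes of HDL and plasma remodelling, Angptl4 was called with treatment. Angptl4 encodes a secreted inhibitor of lipoprotein lipase. It measured 73.6, 51.7 and 84.8 TPM in young, 42.1, 31.6 and 43.1 in aged, and 130, 106 and 127 in treated libraries. Treated libraries lay above all others and aged ones below all others. It rose by 1.63 ± 0.18 with treatment (limma adjusted p = 0.00961), a call that no left-out library ended, and was 0.81 higher in treated than in young livers (adjusted p = 0.0266). Lpl, the lipase gene itself, was low. In aged livers it measured 3.15 ± 1.21 TPM, with uncalled log2 differences of -0.15 with age and -0.93 with treatment. Between young and treated livers it fell from 3.45 ± 0.52 to 1.39 ± 0.47 TPM (-1.09, limma adjusted p = 0.0225). Macrophages express Lpl as well, and 6 macrophage markers summed to 59.5 to 95.9 TPM in young and 44.9 to 52.6 TPM in treated libraries, whose part in this call was not tested. Pon1, an HDL enzyme, did not pass, at 480 ± 59.3, 414 ± 84.5 and 446 ± 49.7 TPM in young, aged and treated livers. The list's median was -0.02, -0.10 and -0.09 in the same order.

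Of 12 tested genes of lipoprotein uptake, none passed with age or with treatment. Cd36, a fatty acid and lipoprotein receptor, was higher in treated than in young livers, at 14.2 ± 3.3 against 6.96 ± 1.13 TPM (log2 difference 0.96, limma adjusted p = 0.0150). Untreated aged livers held 11.7 ± 2.0 TPM of Cd36. The remnant receptors Lsr (70.2 ± 3.1, 89.2 ± 9.2 and 86.0 ± 5.8 TPM in young, aged and treated livers) and Sdc1 (70.1 ± 3.9, 84.5 ± 16.9 and 69.7 ± 9.6 TPM) did not pass. The list's median was 0.08, -0.11 and -0.04.

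Of 17 tested transcription regulators of these genes, Ppara changed in both comparisons of single factors. Ppara encodes the fatty acid receptor that controls lipid oxidation and, among apolipoproteins, Apoa5 and Apoc3. It measured 21.3, 19.5 and 19.7 TPM in young, 9.83, 9.83 and 13.8 in aged, and 20.0, 22.4 and 19.8 in treated libraries. It fell by 0.84 on the log2 scale with age (limma adjusted p = 0.0144) and rose by 0.88 with treatment (adjusted p = 0.0158), and treated and young livers differed by 0.04 (adjusted p = 0.878). Both calls share the aged libraries.

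Esrra, an orphan receptor of mitochondrial genes, fell from 13.3 ± 1.4 to 7.75 ± 0.35 TPM with treatment (-0.74, limma adjusted p = 0.0161). Between treated and young livers Nr0b2, a corepressor of bile acid synthesis, was higher (18.2 ± 1.5 to 43.2 ± 4.7 TPM, log2 difference 1.23, adjusted p = 0.0475). Untreated aged livers already held 45.3 ± 24.7 TPM of Nr0b2. Its log2 differences of 1.17 with age and 0.06 with treatment were not called (limma adjusted p = 0.122 and 0.860). Esrra, Nr2f2 and Srebf1 were lower in treated than in young livers. Srebf1, the regulator of fatty acid synthesis, went from 33.2 ± 5.2 in young to 12.8 ± 3.4 TPM in treated livers (-1.36, adjusted p = 0.0377), and Nr2f2 from 4.56 ± 0.21 to 2.66 ± 0.44 TPM (-0.69, adjusted p = 0.0317). In aged livers Srebf1 measured 40.8 ± 20.0 TPM. Its log2 differences of 0.21 with age and -1.57 with treatment were not called (limma adjusted p = 0.819 and 0.0529). Nr2f2 measured 3.87 ± 0.84 TPM in aged livers, with uncalled differences of -0.23 and -0.46 in the same order. Hnf4a (109 ± 12.8, 155 ± 51.2 and 160 ± 7.2 TPM in young, aged and treated livers) and Cebpa (161 ± 18.5, 154 ± 10.8 and 130 ± 1.3 TPM) did not pass. The list's median was -0.15 with age, 0.14 with treatment and 0.04 between treated and young livers.

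**Figure D4:**
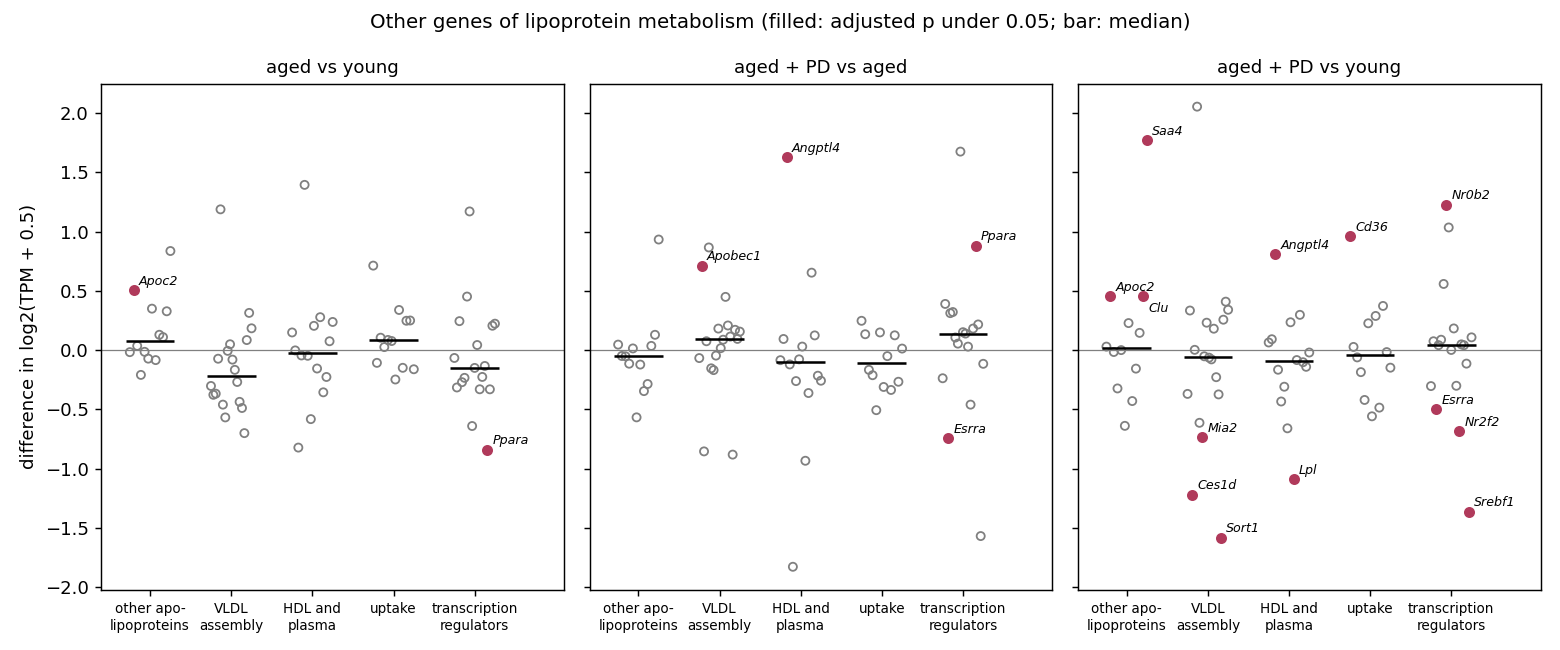
Difference on the log2(TPM + 0.5) scale (y axis) of each tested gene of the 5 lists (x axis) in the 3 comparisons, with the list median as a bar and genes with an adjusted p under 0.05 filled and named. The list medians stay between -0.22 and 0.14, and Angptl4 at 1.63 is the highest called gene with treatment.

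Many of these calls ended when 1 library was left out. With treatment, the calls of Ppara and Esrra ended without treated replicate 2 or 3, and that of Apobec1 without aged replicate 2 or any treated library (adjusted p 0.0619 to 0.0971 over these fits). With age, the call of Ppara ended without young replicate 1 or 2 or aged replicate 1 (0.0562 to 0.0865). Of the 13 calls between treated and young livers, 12, 8 and 10 ended without young replicates 1, 2 and 3 (0.0570 to 0.166), 8, 12 and 12 without treated replicates 1, 2 and 3 (0.0506 to 0.183), and that of Nr0b2 without aged replicate 1 (0.0529). Sort1 was called in every fit that left out 1 library.

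Other settings also ended calls between treated and young livers. Those of Esrra and Nr2f2 ended with median-of-ratios scaling (limma adjusted p 0.0980 and 0.0635) and with quantile normalization (0.0584 and 0.0686). The call of Clu ended with quantile normalization (0.134), with no filter (0.0850) and without the trend and robust options (0.0764). With no filter, those of Lpl, Angptl4, Nr2f2, Srebf1 and Nr0b2 ended as well (0.0510 to 0.0609). With treatment, the calls of Apobec1, Ppara and Esrra ended in a fit of the 2 groups alone (0.0505 to 0.0527), and that of Apobec1 with no filter (0.0558).

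Liver samples hold several cell types, and fewer cells of a type cannot be told apart from less RNA per cell. The summed level of 8 hepatocyte markers overlapped between the groups, at 24068 to 28704 TPM over all libraries. Macrophage markers (6 genes) summed to 59.5 to 95.9 TPM in young, 55.1 to 79.5 in aged and 44.9 to 52.6 in treated libraries, so treated livers lay below all others. Neutrophil markers (5 genes) summed to 2.73 to 3.62, 7.47 to 23.4 and 20.3 to 29.7 TPM. Mpo was listed at 0 in young and treated livers. Of these 5 genes, only 2 passed the filter on low values, S100a8 and S100a9, which reached 10.8 and 17.99 TPM. Csf3r, Elane and Mpo reached at most 1.02, 0.493 and 0.0526 TPM, so the neutrophil sum mainly follows S100a8 and S100a9. Whether that sum reflects neutrophils was not tested. Acute phase genes (10) summed to 4613 to 8964 TPM in young, 4932 to 24980 in aged and 14326 to 25983 in treated libraries, and Saa1 stood out in aged replicate 1 (6008 TPM) and young replicate 2 (1482 TPM) within the untreated groups. The part of these cells and genes in the differences of the apolipoprotein genes was not tested. Without those 2 libraries Apoa5 differed by 0.75 with treatment (limma adjusted p = 0.0644) and Mttp by -0.52 between treated and young livers (adjusted p = 0.0350). Saa1 was then at 38.3 to 222 TPM in the untreated libraries left and at 2730 to 7204 TPM in the treated ones. That fit therefore cannot separate acute phase levels from treatment.

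Depth is unknown for all values, since TPM keeps none. The listed TPM covered 53.1% to 57.7% of the full TPM scale in each library, and Alb, the albumin gene, was listed at 0 in all 9, so the tables hold a part of the transcripts.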

How the data were processed

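The 9 liver libraries were made from total RNA with an Illumina TruSeq kit and sequenced paired-end, per the labels' protocols. The authors deposited 1 table of TPM values per library, made with kallisto on mm10, per the submitters' processing notes. Not given in the sources used here are the kallisto version, the transcript set and any use of strand. Each table had 23444 rows, of which 4 with repeated date-like symbols were left out.

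Groups were taken from the labels. The 10161 genes that reached 1 TPM in 3 libraries were fitted on log2(TPM + 0.5), which understates changes of low genes, in 1 model of all 9 libraries with the group as the only term (limma 3.58.1, R 4.3.3, trend and robust options). Contrasts were two-sided, with Benjamini-Hochberg adjustment over all tested genes. On data simulated for treated against aged livers (10161 genes), 28.4% of 67 genes changed by 0.5, 77.6% of 67 changed by 1 and 97% of 66 changed by 2 on the log2 scale were recovered. The simulated noise was normal and drawn for each gene on its own, without effects shared within a library. These shares therefore hold for such data only.

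The members and lists were chosen with earlier results of these data known. Named genes are the 10 members, up to 4 called and 2 abundant uncalled genes of each list and comparison, the 3 genes most like Apoa5 (the member with the smallest F-test p) and Apob, and the cluster genes with their neighbours. Of these, 1 item is not reported here. All 79 list genes and 58 of 59 marker genes were matched, 2 by an older symbol. Positions are from GENCODE M21 (GRCm38), and sequences from RefSeq. Alternatives changed the pseudocount (0.1 or 1), filter, scaling, weights, spread estimate and replicate block, or left out libraries.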

Additional observations from a re-analysis of the deposited data

How the results depend on the processing

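Over 21 alternatives, the log2 difference of Apoa5 with treatment stayed between 0.54 and 0.79, and its call was lost in 12 of them. The number of the 10 genes called with treatment fell from 1 to 0 with no filter, without the trend and robust options, in a fit of the 2 groups alone and with the replicate block, and was 0 to 1 when libraries were left out. Between treated and young livers it went from 0 to 1 with median-of-ratios scaling, 3 with library weights (Apoa4, Apoa5, Mttp), 1 in a fit of the 2 groups alone, and 0 to 1 when libraries were left out. The genes called over the whole table varied more. With age they numbered 112, and 62 with no filter, 490 with library weights, 66 without the trend and robust options, 49 with 2 groups and 16 to 696 with libraries left out. With treatment they numbered 147, and 29, 271 and 25 with no filter, weights and 2 groups, 60 with the replicate block, and 7 (without treated replicate 2) to 392 (without aged replicate 3) with libraries left out. Between treated and young livers they numbered 699, and 1354 and 1282 with weights and 2 groups, and 153 to 1263 with libraries left out. List genes called with age (2) became 1 with no filter, median-of-ratios scaling, quantile normalization, no trend and robust options, or 2 groups, 8 with weights, and 0 to 13 with libraries left out. With treatment (4) they became 7 with weights, 1 with 2 groups, and 1 to 8 with libraries left out. Between treated and young livers (13) they became 7 with no filter, 23 with weights, and 1 to 21 with libraries left out. The cause of these changes was not tested. By construction, leaving out libraries or a group lowers the residual degrees of freedom.

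Signs turned for uncalled differences, most of them near 0. The exception was Apoa1, at -0.25 with age and -0.14 between treated and young livers. Quantile normalization, under which Apoa2 and other top genes tie, gave 0.012 for Apoa1 and -0.031 for Apoe with age and 0.19 for Apoa1 between treated and young livers. It also moved the share of the 10 genes in treated libraries to 9.91%. Rescaling the listed TPM gave -0.0086 for Apoe with age. Median-of-ratios scaling gave 0.033 for Apoe, 0.0014 for Mttp, 0.073 for Lipc and 0.035 for Lcat with treatment, and 0.0697 for Apoe between treated and young livers. Library weights gave -0.043 for Apob and 0.054 for Lipc with treatment. With libraries left out, the range was -0.032 to 0.127 for Apoa2 and -0.044 to 0.075 for Apoe with age, and with treatment -0.017 to 0.20 for Apoa1, -0.076 to 0.088 for Apob, -0.123 to 0.06997 for Lipc and -0.176 to 0.012 for Lcat. The fit without aged replicate 1 and young replicate 2 was chosen after seeing the data. Libraries with the same replicate number did not deviate together (r from -0.22 to 0.17 over 9 pairs, 2 above 0.1, against -0.22 to 0.23 over 18 other pairs). With 3 libraries per group this cannot exclude a pairing by number, and the labels give none. With the replicate block, limma adjusted p-values were above 0.05 for Apoa5 (0.0663) and Zfp259 (0.0549) with treatment, Apoc2 with age (0.0724), and Ces1d (0.0566), Clu (0.0649), Esrra (0.0565), Srebf1 (0.0595) and Nr0b2 (0.0511) between treated and young livers, which ended those calls.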
